A study of Mus musculus with 10 samples.

Results

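Transcript levels of 10 genes for activator protein 1 (AP-1) and other immediate-early transcription factors were examined in mouse Lin- bone marrow cells, the fraction left after cells bearing surface antigens of mature blood lineages are depleted. The genes, Fos, Fosb, Fosl2, Jun, Junb, Jund, Egr1, Egr2, Ier2 and Nr4a1, were taken by symbol from the 55359 genes of the deposited table, and 8 of the 10 reached the mean level of 0.1 FPKM required for testing. FPKM are fragment numbers divided by gene length and by library size. Bulk RNA was sequenced in 5 libraries labelled WT (Dhx9f/f) and 5 labelled cKO (Dhx9f/f;MX1), so that both groups carry the floxed alleles of Dhx9, a gene for an RNA and DNA helicase. In the cKO mice Cre comes from the Mx1 promoter, which interferon switches on, and is induced by poly(I:C), an RNA mimic. The labels describe the cKO genotype as a Dhx9 knock down and give no ages. The sources used here do not say if the WT mice of this experiment also received it, so an effect of poly(I:C) and one of the genotype cannot be told apart. The replicates are numbered but not tied to named mice, so p-values measure only the spread between these libraries, which may be technical in part. The WT libraries came from both sexes (below) and so not all from a single mouse. The study defines n as biological replicates unless stated otherwise, but gives no n for this RNA sequencing.

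Dhx9 itself went against the labels. Its level was 130.8 to 156.5 FPKM in the libraries labelled cKO and 65.4 to 72.4 FPKM in those labelled WT, a log2 difference of 1.0 (limma, Benjamini-Hochberg adjusted p = 1.39e-05). Every direction given here therefore rests on the labels. In bone marrow cells of cKO mice the study reported less Dhx9 by qRT-PCR and Western blot, measures other than the FPKM of the whole gene. The depth, recovered from the values, was 13790000 to 17170000 fragments in the libraries labelled cKO and 15070000 to 18820000 in those labelled WT. WT libraries 3, 4 and 5 were high in Xist, the RNA of the inactive X chromosome, whereas WT libraries 1 and 2 and all cKO libraries had Ddx3y, a gene of the Y chromosome, so the sexes were unequally divided between the labels. Kit, the stem cell factor receptor, was at 36.6 to 54.4 FPKM in WT and 18.7 to 31.1 FPKM in cKO. Cd34 was at 20.1 to 28.6 FPKM in WT and 1.05 to 6.78 FPKM in cKO. Both progenitor markers were present in every library and lower in those labelled cKO. Their presence does not test whether lineage antigens were depleted. The lineage antigen genes Cd5, Itgam and Ly6g summed to 2.81 to 4.11 FPKM in WT and 0.05 to 2.32 FPKM in cKO. In bulk RNA, fewer cells of a type and less RNA per cell cannot be told apart.

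AP-1 is a dimer of basic leucine zipper proteins. Jun proteins pair with each other or, more stably, with Fos proteins, which cannot pair among themselves, and the dimers bind AP-1 sites (TGANTCA) or, with some partners, sites of the cAMP response element type (TGACNTCA). Most of these genes are immediate-early genes: growth factors, cytokines and stress induce them within minutes through serum response factor and its ETS partners and through CREB, without new protein synthesis, and AU-rich elements shorten the life of several of their mRNAs. Egr1 and Egr2 encode zinc finger factors of the same response, Nr4a1 the orphan nuclear receptor Nur77, and Ier2 a small nuclear protein. In blood formation, Fos proteins and Egr1 are linked to monocyte and macrophage differentiation, Junb restrains myeloid proliferation, and Egr1 and Nr4a1 are linked to the quiescence of stem cells.

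Promoters are shown of members that were called lower (Fos), called higher (Jun) or not called (Jund, Ier2) in the libraries labelled cKO and that held a known induction motif. The 320 bases before the start of each gene's canonical transcript were searched on both strands for the serum response element (CArG box), TGACNTCA, TGANTCA and GCGNGGGCG, the EGR site. These were found in 1.62%, 6.22%, 6.20% and 6.27%, respectively, of 12879 promoters of protein-coding genes of the same length. The 300 bases from position -320 to position -21 are printed 5′ to 3′ in lower case, from GRCm39, with the matches in capitals. Fos (chr12:85520338-85520637, plus strand) holds a serum response element, Jun (chr4:94940480-94940779, minus strand) and Ier2 (chr8:85389504-85389803, minus strand) a TGACNTCA match each, and Jund (chr8:71151279-71151578, plus strand) a TGACNTCA match followed by 3 EGR matches.
Fos: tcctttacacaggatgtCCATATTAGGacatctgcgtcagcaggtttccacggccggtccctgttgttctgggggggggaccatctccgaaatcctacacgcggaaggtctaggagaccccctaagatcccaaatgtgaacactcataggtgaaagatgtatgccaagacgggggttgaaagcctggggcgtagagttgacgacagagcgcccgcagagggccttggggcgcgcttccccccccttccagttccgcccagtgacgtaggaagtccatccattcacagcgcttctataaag
Jun: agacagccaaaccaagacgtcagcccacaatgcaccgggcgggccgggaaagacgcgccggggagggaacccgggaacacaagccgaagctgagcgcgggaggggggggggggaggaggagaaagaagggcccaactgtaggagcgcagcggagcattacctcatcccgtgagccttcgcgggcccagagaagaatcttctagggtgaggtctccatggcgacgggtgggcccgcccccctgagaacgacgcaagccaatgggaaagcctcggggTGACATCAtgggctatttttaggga
Jund: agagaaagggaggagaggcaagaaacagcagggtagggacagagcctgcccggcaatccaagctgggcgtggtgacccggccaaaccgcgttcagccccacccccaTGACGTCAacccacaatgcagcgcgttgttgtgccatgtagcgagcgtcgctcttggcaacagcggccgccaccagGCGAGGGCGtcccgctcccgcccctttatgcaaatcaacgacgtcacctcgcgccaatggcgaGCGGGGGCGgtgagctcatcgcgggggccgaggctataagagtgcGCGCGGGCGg
Ier2: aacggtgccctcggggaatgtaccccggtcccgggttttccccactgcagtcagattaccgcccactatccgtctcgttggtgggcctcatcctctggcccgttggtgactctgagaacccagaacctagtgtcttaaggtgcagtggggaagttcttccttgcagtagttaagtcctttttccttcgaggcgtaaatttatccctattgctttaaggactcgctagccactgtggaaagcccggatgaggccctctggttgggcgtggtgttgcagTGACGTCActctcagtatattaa
With positions counted from the start of the transcript, the serum response element of Fos lies at -303 to -294. The TGACNTCA matches lie at -45 to -38 in Jun, -43 to -36 in Ier2 and -214 to -207 in Jund. The serum response element was also matched in Fosb and Egr2, both hardly expressed here, and the EGR site also in Fosb. No match of these 4 motifs was found in the windows of Fosl2, Junb and Nr4a1, and TGANTCA was in none of these 9 windows, that of Egr1 being left out here. A match describes letters in a window and is neither a binding site nor a cause.

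In the libraries labelled cKO, Fos, Fosl2 and Nr4a1 fell and Jun and Egr1 rose. A gene was called where limma on log2(FPKM + 0.1) gave at least a 2-fold change and an adjusted p under 0.05. By this rule 3 of the 8 members tested were lower and 2 were higher, where 16.8% of the 18742 genes tested were called lower and 4.6% were called higher. In either direction 5 of the 8 were called, against 21.4% of all genes. Fos and Fosl2 thus went the opposite way to Jun, their dimer partner, and Nr4a1 the opposite way to Egr1. By adjusted p alone, 4 members were higher, Junb and Jund being added, where 16.7% of all genes were, and 3 were lower, where 28.3% were. Jund lost its adjusted p with a covariate for Xist (0.83, limma adjusted p = 0.066) and without the WT libraries high in Xist (0.83, limma adjusted p = 0.112). The groups did not overlap in 2 members that were higher in cKO (10.6% of all genes) and 3 that were lower (21.6% of all genes), and so in 5 of 8, against 32.2% of all genes. The median log2 difference was 0.35 over the 8 members and -0.11 over all genes tested.

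**Figure D1:**
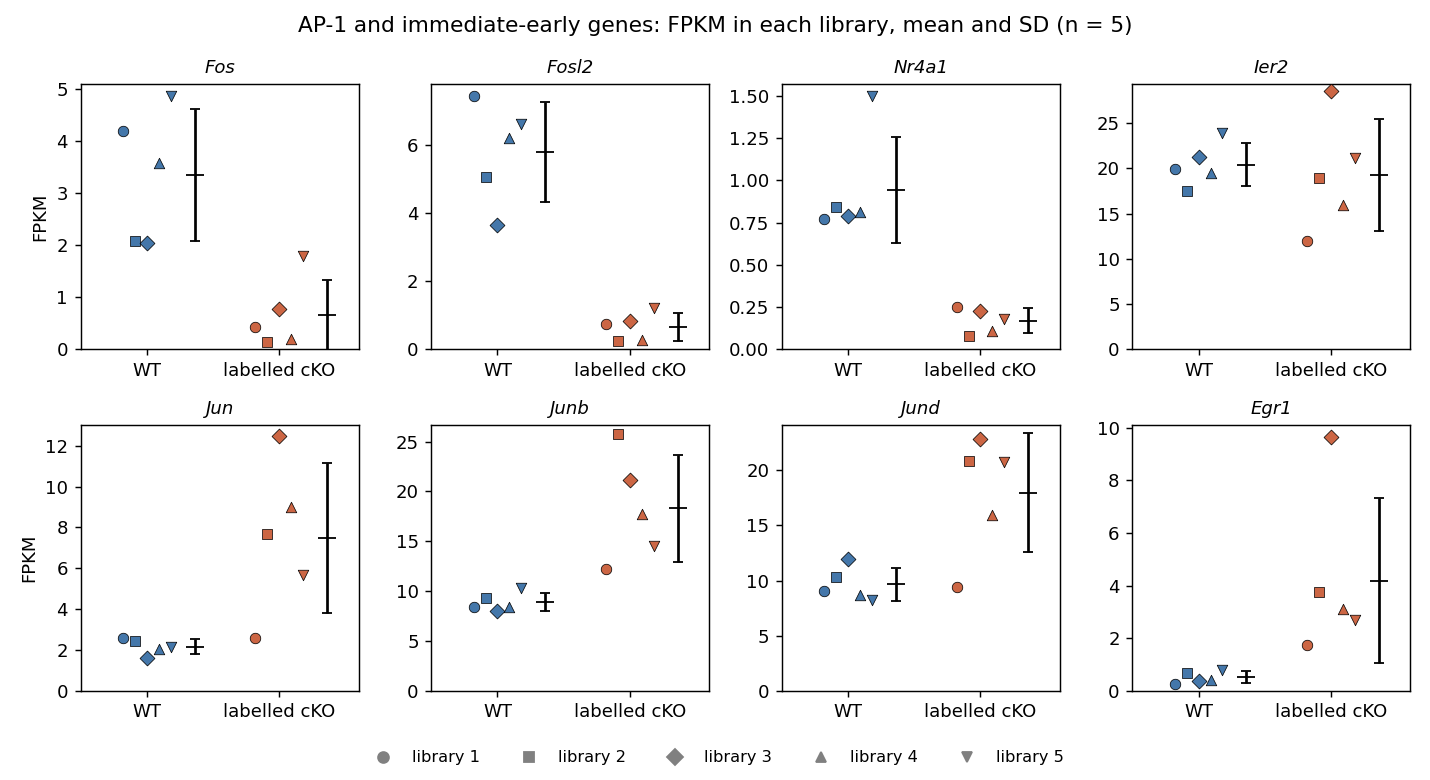
Level in FPKM (vertical axis, starting at 0) of each of the 8 members tested in the 5 WT and 5 cKO libraries, each point 1 library with a shape for its number, and bars for the group mean and SD. Fos, Fosl2 and Nr4a1 lie lower in every cKO library than in any WT library, Egr1 and Junb lie higher, and in Jun and Jund library cKO 1 falls within the WT range.

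Of the Fos family, Fos (ENSMUSG00000021250; chr12:85520658-85524047, plus strand), the prototype member, had levels of 4.19, 2.08, 2.04, 3.57 and 4.86 FPKM in WT 1 to WT 5. From cKO 1 to cKO 5 the levels were 0.43, 0.15, 0.77, 0.20 and 1.79 FPKM. All cKO libraries were below all WT libraries, with cKO 5 the closest to them. The means were 3.35 ± 1.26 FPKM (SD, n = 5) and 0.668 ± 0.673 FPKM (SD, n = 5), a log2 difference of -2.49 (SE 0.523, limma adjusted p = 0.00284) or 5.61-fold lower. The two-sided exact permutation test gave p = 0.00794, the smallest that 5 against 5 libraries allow. Fos is one of the genes the study singled out from these libraries, so its fall here is not independent evidence. The study also reported lower Fos by qRT-PCR in cKO Lin- cells. Without the 3 WT libraries high in Xist its log2 difference was -2.40 with a limma adjusted p of 0.0701, and it was not called.

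Fosl2 (ENSMUSG00000029135; chr5:32292707-32315186, plus strand), which encodes Fra-2, was the most abundant Fos family member in WT. It was at 7.45, 5.08, 3.66, 6.21 and 6.63 FPKM in WT and at 0.75, 0.24, 0.83, 0.27 and 1.23 FPKM in cKO. The lowest WT library was well above the highest cKO library. Its log2 difference of -3.11 (SE 0.384, limma adjusted p = 0.000162), from 5.81 ± 1.47 to 0.664 ± 0.415 FPKM (SD, n = 5 each), or 8.61-fold lower, was larger in size than that of any other member tested. The permutation p was again the smallest allowed.

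Fosb (ENSMUSG00000003545; chr7:19036621-19043976, minus strand), whose product and its truncated form accumulate on repeated stimulation in other tissues, was close to the limit of detection. Its levels were 0.04, 0.03, 0.01, 0.01 and 0.01 FPKM in WT and 0.05, 0.03, 0.09, 0.02 and 0.04 FPKM in cKO, about 1 to 4 and 2 to 9 fragments a library. The ranges overlapped, and the exact permutation test (two-sided, n = 5 each) gave p = 0.0794, so that at this depth no difference was detectable. It was left out of the limma test for its low mean.

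Of the Jun family, Jun (ENSMUSG00000052684; chr4:94937271-94940459, minus strand), the prototype partner of Fos, was at 2.58, 2.44, 1.6, 2.06 and 2.13 FPKM in WT. In cKO it was at 2.58, 7.70, 12.48, 8.99 and 5.69 FPKM. The lowest cKO library, cKO 1, equalled the highest WT library, and the other cKO libraries were all above WT. The means of 2.16 ± 0.381 and 7.49 ± 3.69 FPKM (SD, n = 5 each) gave a log2 difference of 1.59 (SE 0.35, limma adjusted p = 0.00368), or 3.01-fold higher, and the exact permutation p was 0.0159. Jun shares 528 exonic bases with the antisense transcript Junos, which was at 0.07 to 0.36 FPKM in WT and 0.03 to 0.30 FPKM in cKO, and counting by strand is not stated in the sources used here. Without the 3 WT libraries high in Xist, the adjusted p of Jun was 0.107, with a log2 difference of 1.37.

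Junb (ENSMUSG00000052837; chr8:85701113-85705359, minus strand), a Jun protein with weaker transactivation that can oppose Jun, was at 8.40, 9.33, 8.04, 8.41 and 10.26 FPKM in WT. In cKO it was at 12.22, 25.79, 21.18, 17.73 and 14.55 FPKM. Each cKO library exceeded each WT library, with cKO 1 nearest to WT. The log2 difference was 0.99 (SE 0.18, limma adjusted p = 0.00121), from 8.89 ± 0.903 to 18.3 ± 5.38 FPKM (SD, n = 5 each), and at 1.99-fold it lay just under the 2-fold limit. The annotated exons of Junb share 173 bases with those of Prdx2 on the opposite strand, a peroxiredoxin gene at 113.2 to 172.1 FPKM in WT and 155.6 to 266.3 FPKM in cKO. Reads in the shared bases cannot be told apart if strand was not used in counting, so the level of Junb is uncertain to that extent.

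Jund (ENSMUSG00000071076; chr8:71151599-71153265, plus strand), the most constitutive Jun gene, was at 9.04, 10.31, 11.95, 8.72 and 8.26 FPKM in WT and at 9.45, 20.87, 22.84, 15.99 and 20.76 FPKM in cKO. Only cKO 1 lay within the WT range. Its log2 difference of 0.84 (SE 0.221, limma adjusted p = 0.00979), from 9.66 ± 1.49 to 17.98 ± 5.40 FPKM (SD, n = 5 each), or 1.79-fold, passed the adjusted p but not the fold limit. Without cKO 1 it was 1.05 (adjusted p = 0.000282) and Junb was 1.12, so that both then passed and 4 members were called higher instead of 2.

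Egr1 (ENSMUSG00000038418; chr18:34992876-34998049, plus strand) gave the largest rise of the 8 members tested. It was at 0.25, 0.69, 0.38, 0.42 and 0.80 FPKM in WT and at 1.74, 3.76, 9.64, 3.11 and 2.69 FPKM in cKO. All cKO libraries were above all WT libraries, and cKO 3 stood well above the rest. The log2 difference was 2.66 (SE 0.424, limma adjusted p = 0.000584), or 6.31-fold higher, from 0.508 ± 0.229 to 4.19 ± 3.14 FPKM (SD, n = 5 each), with the smallest permutation p allowed.

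Egr2 (ENSMUSG00000037868; chr10:67371305-67378018, plus strand), its paralog, was hardly detected. It was at 0.02, 0.04, 0.15, 0.02 and 0.08 FPKM in WT and at 0, 0.03, 0.09, 0.04 and 0.20 FPKM in cKO, or about 1 to 8 and 0 to 11 fragments a library. The ranges overlapped throughout (exact permutation p = 0.929, two-sided, n = 5 each), and no difference was detectable at this depth.

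Nr4a1 (ENSMUSG00000023034; chr15:101151980-101172681, plus strand) went the other way from Egr1. It was at 0.77, 0.84, 0.79, 0.81 and 1.5 FPKM in WT and at 0.25, 0.08, 0.23, 0.11 and 0.18 FPKM in cKO. The groups did not overlap, and WT 5 stood above the other WT libraries. The log2 difference was -1.95 (SE 0.281, limma adjusted p = 0.000336), or 3.87-fold lower on the scale with 0.1 FPKM added, which understates the change of so low a gene. With 1 FPKM added in place of 0.1 it was -0.72, under the fold limit. By the length of all annotated exons, Nr4a1 held about 133 to 246 fragments a library in WT and 15 to 40 in cKO. By the length of its canonical transcript, it held about 31 to 58 and 3 to 9. Its exons share 656 bases with the antisense transcript Gm63180, for which no level is available.

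Ier2 (ENSMUSG00000053560; chr8:85387960-85389483, minus strand) had the highest WT level of the 10. It was at 19.93, 17.45, 21.22, 19.46 and 23.91 FPKM in WT and at 11.95, 18.97, 28.54, 15.91 and 21.14 FPKM in cKO. The cKO libraries spread to both sides of the WT range. The difference of -0.13 on the log2 scale (SE 0.196, limma adjusted p = 0.620) was within the spread between libraries (exact permutation p = 0.571).

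In order of mean WT level per length, Ier2 was followed by Jund and Junb, which differed by less than their spread, then by Fosl2, Fos, Jun, Nr4a1, Egr1, Egr2 and Fosb. In cKO, Ier2, Junb and Jund came first within each other's spread, followed by Jun and Egr1, and then by Fos and Fosl2, whose means nearly coincided. Egr1 thus passed Nr4a1, Fos and Fosl2 in the order of mean levels. Per length, Jun was below Fos and Fosl2 on average in WT and above both in every cKO library.

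The opposite moves were set side by side as summed levels of each AP-1 family. The sum of Fos, Fosb, Fosl1 and Fosl2 was 5.74 to 11.7 FPKM in WT and 0.62 to 3.40 FPKM in cKO, whereas that of Jun, Junb and Jund was 19.2 to 22.1 FPKM in WT and 24.2 to 56.5 FPKM in cKO. The families therefore moved apart without overlap between the labels in either sum. In cKO 1, Jun (2.58 FPKM) and Jund (9.45 FPKM) lay within the WT range. There the Jun sum exceeded WT only through Junb (12.22 FPKM), whose level is uncertain by its bases shared with Prdx2. The ratio of the Jun sum to the Fos sum was 1.71, 3.07, 3.76, 1.96 and 1.79 in WT libraries 1 to 5 and 17.7, 50.3, 19.8, 68.9 and 12.1 in cKO libraries 1 to 5. Fos family transcripts made up 21.0% to 36.8% of the AP-1 total in WT and 1.43% to 7.66% in cKO. These sums are a description with no test, since they were formed with the members' directions known.

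**Figure D2:**
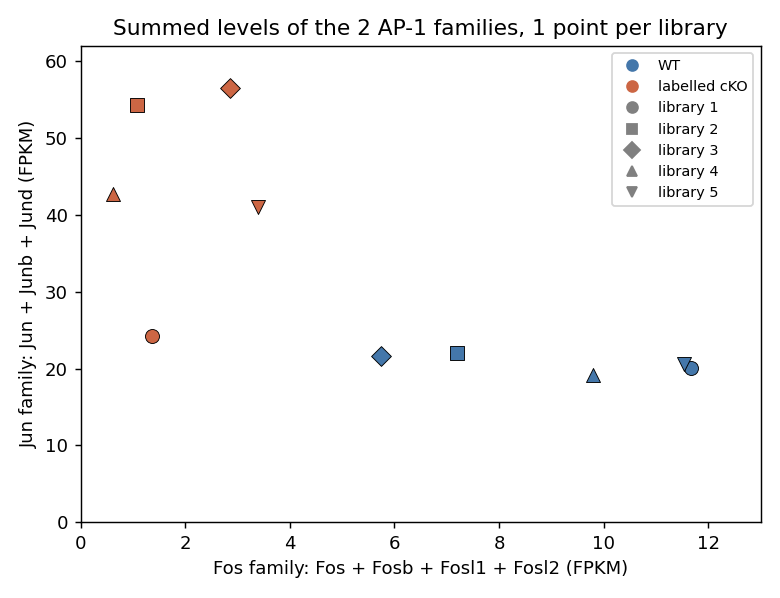
Summed FPKM of the Fos family (horizontal axis) against summed FPKM of the Jun family (vertical axis), 1 point for each of the 5 WT and 5 cKO libraries, with a shape for the library number. The WT libraries lie at Fos sums of 5.74 to 11.7 and Jun sums of 19.2 to 22.1, and the cKO libraries to the left of and above them.

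Within the Jun family the composition moved less than the total. Junb held a median of 42.3% of the Jun sum in WT and 41.5% in cKO, Jund 45.4% and 39.0%, and Jun 10.7% and 14.2%. The range of the Jun share was 7.41% to 12.9% in WT and 10.6% to 22.1% in cKO, so the groups overlapped.

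Single libraries carried much of the spread within cKO. Among the 8 members tested, cKO 1 was the lowest cKO library in 5 (Jun, Junb, Jund, Egr1 and Ier2) and cKO 3 the highest in 4 (Jun, Jund, Egr1 and Ier2). The members that fell had another order, with cKO 2 the lowest in Fos, Fosl2 and Nr4a1 and cKO 5 the highest in Fos and Fosl2. In WT, library 5 was the highest in 5 members and library 3 the lowest in 4, Fos, Fosl2, Jun and Junb.

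**Figure D3:**
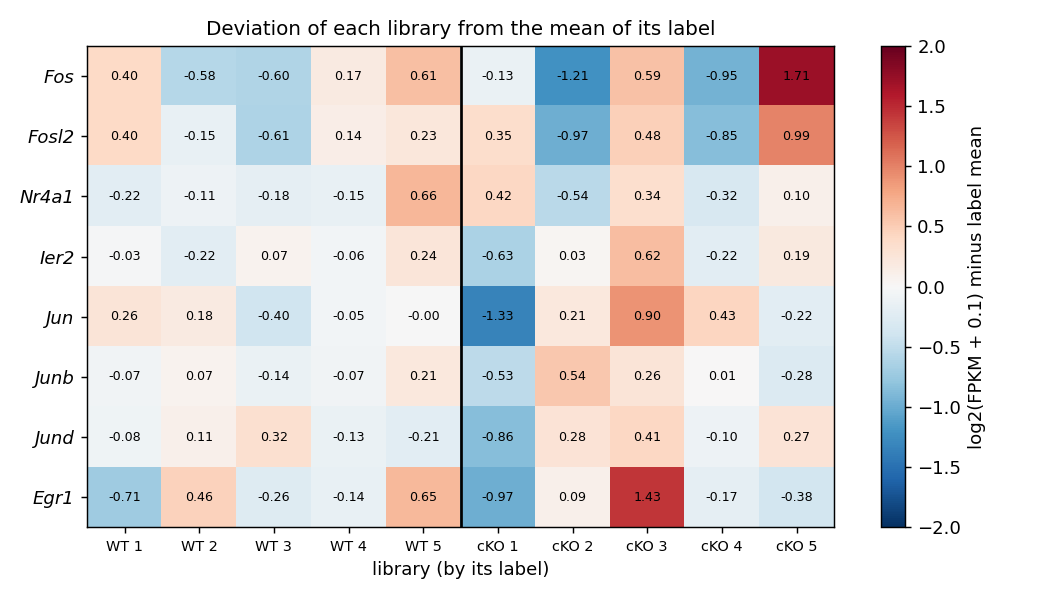
Deviation of each library from its group's mean, on the log2(FPKM + 0.1) scale, for the 8 members tested, with libraries in columns, members in rows and red for above, blue for below the mean. In cKO 1 Jun, Junb, Jund, Egr1 and Ier2 were each at their cKO minimum, and in cKO 3 Jun, Jund, Egr1 and Ier2 were at their cKO maximum.

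Markers of other blood cells differed between the labels as well. Over all genes tested, 16.8% were called lower and 4.6% higher. Of 10 monocyte and dendritic cell genes, 9 were called lower and none higher, and their summed level was 1363, 812.5, 751.7, 1104 and 1328 FPKM from WT 1 to WT 5 and 50.02, 14.7, 134.0, 5.91 and 209.7 FPKM from cKO 1 to cKO 5. In the WT libraries Fosl2 had the same order as this sum, and in cKO the libraries with the highest sums, 5 and 3, also had the highest Fos and Fosl2. Libraries cKO 2 and cKO 4 had both the lowest sums and the lowest Fos, Fosl2 and Nr4a1. These orders were not particular to this list. The mast cell and basophil sum had the same WT order, from 1325 FPKM in WT 1 to 662.9 FPKM in WT 3. The B lineage sum was also highest in cKO 5 and cKO 3 (8.5 and 6.92 FPKM). Sums of the B lineage, neutrophil, T and NK, mast cell and basophil, and stem and progenitor lists were likewise lowest in cKO 2 and cKO 4. The part of any of these cell types in the falls of Fos, Fosl2 and Nr4a1 was not tested.

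Of 11 neutrophil genes 5 were lower, where 16.8% of all genes were. Their sums were 2734 to 3722 FPKM in WT and 149.1 to 2641 FPKM in cKO. The list was not uniform in cKO 1, which had the highest cKO sum. There S100a9 (894.8 FPKM), S100a8 (442.9 FPKM) and Ngp (317.6 FPKM), genes of late neutrophils, were above every WT library, whereas the granule protease and peroxidase genes Elane (183.7 FPKM) and Mpo (277.3 FPKM) were below every WT library. All 12 erythroid genes were higher by adjusted p and 7 of them were called. Over all genes these shares were 16.7% and 4.6%. The erythroid sums were 615.0 to 1679 FPKM in WT and 2303 to 3595 FPKM in cKO. The highest was in cKO 1, the library with the lowest Jun, Junb, Jund, Egr1 and Ier2 of its group. Other libraries did not follow this order. Library cKO 2, with a sum of 3521 FPKM, had the highest Junb of its group (25.79 FPKM). Library cKO 5, with the lowest sum of its group, was above only cKO 1 in Jun (5.69 FPKM) and Junb (14.55 FPKM). The summed levels of the other lists were lower in cKO without overlap for stem and progenitor cells (6 of 7 genes called lower), megakaryocytes (7 of 7), mast cells and basophils (5 of 5), T and NK cells (4 of 7) and the B lineage (4 of 7 tested). The T and NK sum was mostly Nkg7, a gene of cytotoxic granules that was at 72.96 to 95.95 FPKM in WT, while Cd3e, Cd3g and Trac, which mark T cells, overlapped between the labels and were not called. The stromal and endothelial genes, with 4 of 6 called lower and 1 higher, overlapped in sum at 2.88 to 11.3 FPKM in WT and 2.07 to 9.40 FPKM in cKO. No marker of these lists was at 0 in all libraries, and their part in the members' differences was not tested.

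**Figure D4:**
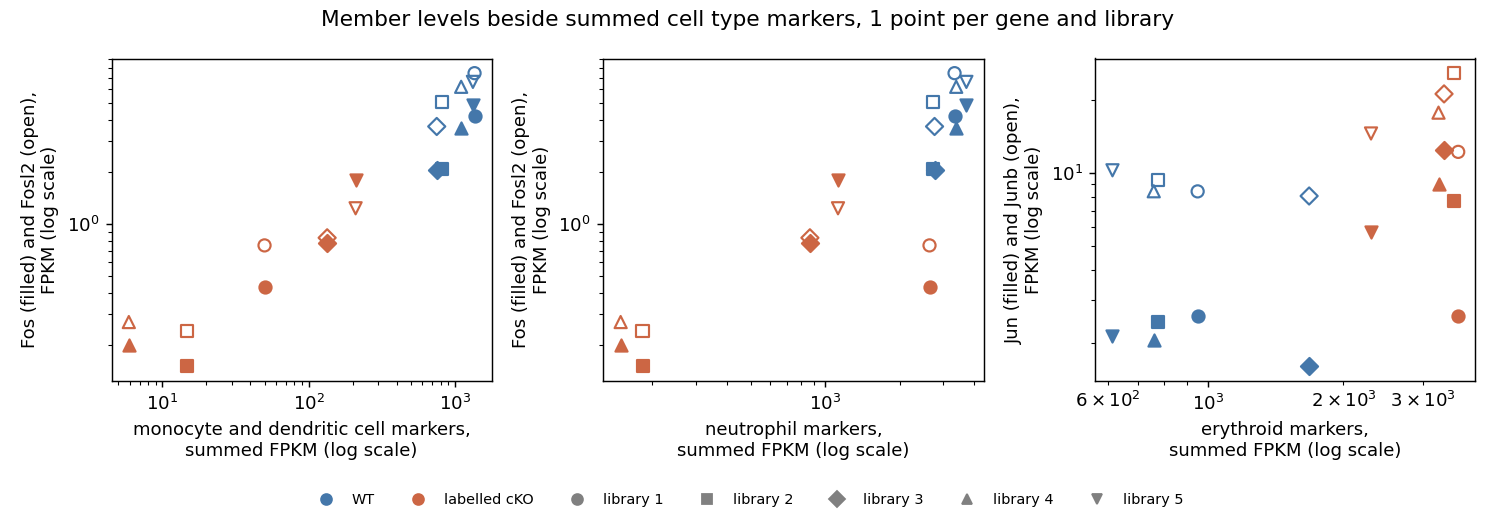
FPKM of Fos and Fosl2 against the summed FPKM of monocyte and dendritic cell or of neutrophil markers, and of Jun and Junb against that of erythroid markers, all on log axes, with WT and cKO in separate colours and a shape for each library number. Fosl2 in WT follows the order of the monocyte and dendritic cell sum, which is also that of the mast cell and basophil sum (not drawn). The neutrophil sum in cKO runs from 149.1 to 2641 FPKM.

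The other genes of the pathway were read from 6 lists. Of 13 AP-1 partners, the basic leucine zipper genes whose products pair with Fos or Jun proteins, 3 were lower and 1 was higher (median log2 difference -0.38). Of all genes, 16.8% were called lower and 4.6% higher. Jdp2, which encodes a dimerisation partner that represses AP-1 sites, fell from 5.63 ± 1.44 to 1.42 ± 0.828 FPKM (SD, n = 5 each; log2 difference -2.10, limma adjusted p = 0.00164). Batf, a partner of Jun proteins in lymphoid cells, fell from 6.50 ± 1.19 to 3.05 ± 0.913 FPKM (-1.10, limma adjusted p = 0.00154), but missed the fold limit without cKO 1 (-0.96), with median-ratio scaling (-0.99), with quantile normalization (-0.76) and with 1 FPKM added (-0.90). Mafg, a small Maf gene with the highest mean of the list over both labels, was at 21.6 ± 1.21 and 14.7 ± 1.99 FPKM, under the fold limit.

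Fosl1, which encodes Fra-1, was the 1 partner called higher and is named after its values were seen. It was listed at 0, 0, 0.03, 0 and 0.03 FPKM in WT and at 0.14, 0.66, 1.16, 0.13 and 0.34 FPKM in cKO. Fosl1 was thus above WT in every cKO library, where Fos and Fosl2 were below. It reached the mean of 0.1 FPKM required for testing only through the cKO libraries (mean 0.486 FPKM, against 0.012 FPKM in WT). Its fitted log2 difference of 2.09 (limma adjusted p = 0.00407) is therefore a description and no support for a difference within the family. Its WT libraries held 0 to 1 fragments and its cKO libraries 4 to 38, so the fitted difference depends on the 0.1 FPKM added.

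Of 14 other immediate-early transcription factors, 11 were tested. Of these, 6 were lower and none was higher (median -1.09), where 16.8% and 4.6% of all genes were. Klf4, a Krüppel-like factor of monocytes, fell from 19.1 ± 3.91 to 1.42 ± 1.94 FPKM (SD, n = 5 each; log2 difference -4.84, limma adjusted p = 0.000912), and by 5.54 without cKO 5, the cKO library with its highest level. Nfil3, a basic leucine zipper repressor, fell from 7.39 ± 1.65 to 1.11 ± 0.615 FPKM (-2.79, limma adjusted p = 0.00022), and Klf6 from 16.6 ± 3.41 to 5.16 ± 2.16 FPKM (-1.75, limma adjusted p = 0.000671). The study singled out Klf6 from these libraries too, and also reported it lower by qRT-PCR. Myc, with the highest mean of the list, was at 87.9 ± 11.3 and 103.7 ± 38.8 FPKM, which differed by less than the spread (0.16, limma adjusted p = 0.623). The 6 that fell also included Klf2, Klf10 and Ier5l. Ier5, named after its values were seen, was at 3.79 to 5.53 FPKM in WT and at 7.59 to 9.94 FPKM in cKO, higher without overlap but under the fold limit (0.92, limma adjusted p = 0.00022).

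Of 26 feedback and effector genes tested, which encode phosphatases, mRNA decay proteins and kinases made in the same response, 6 were lower and 3 were higher (median -0.27). The shares over all genes were 16.8% and 4.6%. Rhob, a small GTPase gene, fell from 29.3 ± 6.62 to 6.20 ± 3.88 FPKM (SD, n = 5 each; -2.44, limma adjusted p = 0.000799). Gadd45b, a stress sensor gene, fell by 1.94 and Dusp2, which encodes a MAP kinase phosphatase, by 1.93 on the log2 scale. The genes called higher were Plk2 (2.19) and Plk3 (1.92), polo-like kinase genes, and Spry1 (1.21), an inhibitor of receptor tyrosine kinase signalling, named after their values were seen. Zfp36l2, an mRNA decay gene with the highest mean of the list, was at 148.7 ± 29.2 and 122.6 ± 13.3 FPKM (-0.26, limma adjusted p = 0.129).

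Upstream of the members, of 15 genes of the MAP kinase cascade 1 was called, Mapk3, which fell from 31.0 ± 4.15 to 13.8 ± 1.48 FPKM (SD, n = 5 each; -1.16, limma adjusted p = 5.29e-05). Mapk14, a p38 kinase gene with the highest mean of the list, was at 67.9 ± 3.84 and 38.5 ± 5.85 FPKM (-0.83, limma adjusted p = 0.000149), under the fold limit. The 1 call among the 15 stands beside 21.4% of all genes called in either direction. By adjusted p alone, 2 of the 15 were higher and 6 lower, where 16.7% and 28.3% of all genes were. Of 11 regulators of immediate-early promoters 2 fell, where 16.8% of all genes did, Elk3, an ETS partner of serum response factor (-2.77, limma adjusted p = 0.00014), and Mrtfa, its actin-regulated coactivator (-2.03, limma adjusted p = 4.83e-05). Srf itself, at 19.0 to 21.5 FPKM in WT and 13.5 to 17.2 FPKM in cKO, had a difference of -0.36 (limma adjusted p = 0.00323) and was not called. The acetyltransferase genes Crebbp and Ep300 differed by -0.12 (limma adjusted p = 0.486) and -0.37 (limma adjusted p = 0.0131), under the fold limit. By adjusted p alone, 1 of the 11 was higher and 6 were lower, where 16.7% and 28.3% of all genes were.

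**Figure D5:**
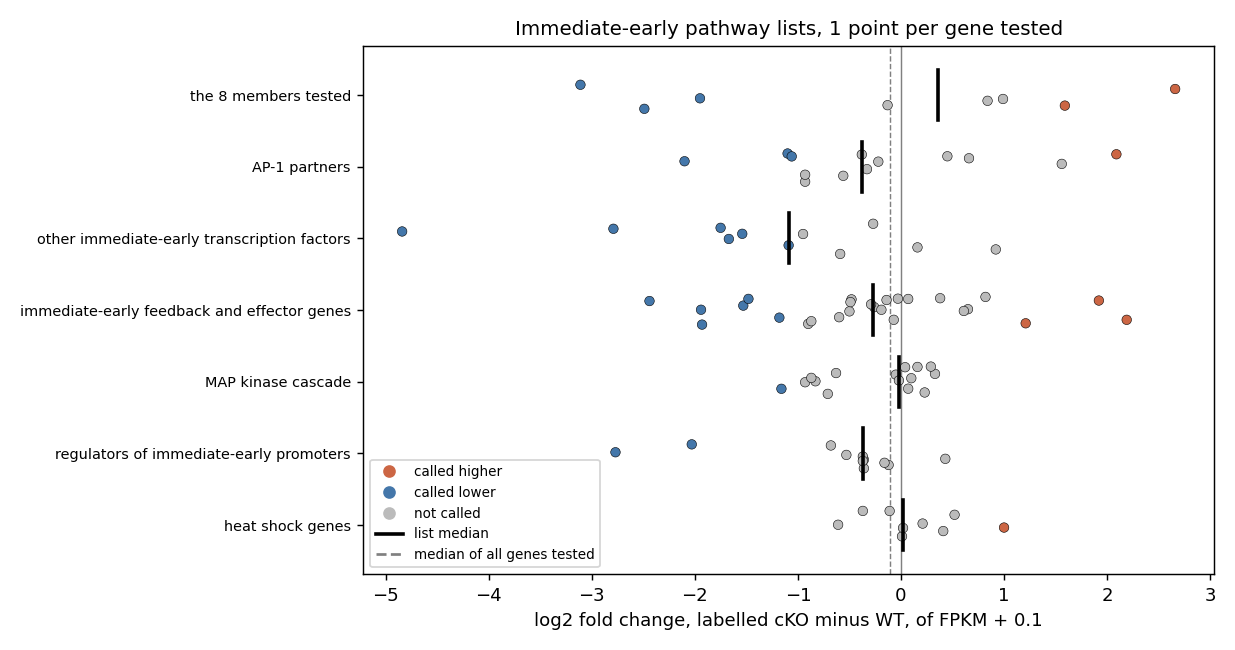
Log2 difference, cKO minus WT, of each tested gene among the 8 members and the 6 pathway lists, with called genes coloured, list medians as bars and the median over all genes tested (-0.11) as a dashed line. The other immediate-early transcription factors have a median of -1.09 with none called higher, and the MAP kinase cascade a median of -0.02 with 1 called.

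Outside the promoters, the members were compared in transcript features that their choice did not use. Jun, Junb, Jund and Ier2 have canonical transcripts of a single exon, a structure found in 2.61% of protein-coding genes, whereas the members that fell, Fos, Fosl2 and Nr4a1, are spliced, as is Egr1, which rose. AU-rich elements are shown because they mark short-lived mRNAs of this class. The element TATTTAT was found in the 3′ UTR of Fos, Fosb, Fosl2, Jun and Jund, against 31.3% of 12584 genes, and so in members of both directions. One site each of Fos and Jun is printed 5′ to 3′ with the element in capitals.
Fos: gtgttttcaattTATTTATtaagatggatt
Jun: tttgcttgtgcaTATTTATaatagcgttcg
The shorter ATTTA had a density of 5.48 per kb in Nr4a1, 4.91 in Fos, 4.12 in Junb and 3.24 in Jun, against a median of 1.32 per kb over all genes, while Egr1 had 1.63 and Ier2 none. The members with the highest density therefore included genes that were lower and genes that were higher in cKO.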

How the data were processed

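The counting by strand, the annotation and the gene lengths behind the values are not given in the sources used here. The submitters' processing notes name cutadapt 1.9.1, HISAT2 2.0.1 and HTSeq 0.6.1, with the build GRCm39. The authors deposited 1 table of FPKM per gene and library, and all 10 columns were mapped to a sample by name. Because FPKM are not counts, no count model was run. Depth was recovered from low values of genes with a single transcript, and fragments of named genes are approximate, as they rest on GENCODE vM39 lengths. No 2 libraries of a group were alike within sampling noise (chi-square per gene of at least 3.91).

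Groups were compared, two-sided, with limma 3.58.1 in R 4.3.3 (lmFit, eBayes with a trend) on log2(FPKM + 0.1), adjusted by Benjamini-Hochberg over all 18742 genes whose mean reached 0.1 FPKM. A call needed at least a 2-fold change besides an adjusted p under 0.05. Single genes were also compared by exact permutation of the 10 libraries. Steps were tested on simulated data. From each pathway list the up to 3 called genes of largest change whose mean reached 1 FPKM, and the gene of highest mean level, are named. The members and lists, taken from general knowledge, were chosen with earlier results of these data known. The symbol of 1 B lineage gene was not matched, and 1 gene of the pathway lists is not reported here by name. Alternatives were other pseudocounts, filters, scalings and call rules, no trend, a replicate block, a covariate for or removal of libraries with Xist above 1 FPKM, and each library left out. Figures were drawn with matplotlib 3.10.9 in Python 3.11.15. Promoter and 3′ UTR sequence came from GRCm39 at GENCODE canonical transcripts. The promoter window was set to 320 bases after a 300-base window was seen to divide the serum response element of Fos.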

Additional observations from a re-analysis of the deposited data

Results flagged for a closer look

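Among the 58 groups of 5 libraries examined (the members, Dhx9 and the named genes), 3 held a library standing apart from its group by Dixon's criterion, where 2.9 are expected by chance, which flags about 1 in 20. Egr1 in cKO 3 was at 9.64 FPKM, against 1.74 to 3.76 FPKM in the other cKO libraries. Nr4a1 in WT 5 was at 1.5 FPKM, against 0.77 to 0.84 FPKM in the other WT libraries. Dusp2 in WT 3 was at 2.97 FPKM, against 5.03 to 5.41 FPKM in the others.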

How the results depend on the processing

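The libraries labelled cKO were higher in Dhx9, and sex and marker genes of other cells moved with the labels, which limits what any difference can be assigned to. Over 23 alternatives, the log2 difference of Fosl2 (-3.35 to -2.04) and Egr1 (1.63 to 3.05) passed the test in each. Fos ranged from -2.92 to -1.41 and lost its call without the 3 WT libraries with Xist above 1 FPKM (-2.40, adjusted p = 0.0701). Jun ranged from 1.30 to 1.93 and lost its call there (1.37, adjusted p = 0.107) and with a covariate for them (1.37, adjusted p = 0.0518), so that 1 member was called higher in both settings. Nr4a1 ranged from -2.46 to -0.72 over 22 alternatives and missed the fold limit with a pseudocount of 1. Junb (0.85 to 1.12) kept an adjusted p under 0.05 in 23 of 23 and Jund (0.74 to 1.05) in 21 of 23, all but both Xist settings. Junb was called in 7 of 23. These were adjusted p alone, median-ratio scaling (1.09), quantile normalization (1.08) and leaving out WT 2, WT 5, cKO 1 or cKO 5. Jund passed the fold limit without cKO 1, and 4 members were higher by adjusted p alone. Dhx9 and Hspe1, at a log2 difference of about 1, each fell under the fold limit in 11 of 23. Leaving out each library in turn gave 2 to 4 members called higher, the 4 without cKO 1, and 3 lower each time, and 764 to 950 genes higher and 2880 to 3248 lower in all.

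Over all genes, 862 were called higher and 3153 lower. The count higher was 356 with a pseudocount of 1, 462 where the mean had to reach 1 FPKM, 1482 with quantile normalization, 3138 with adjusted p alone and 541 without the libraries with Xist above 1 FPKM. The count lower was 1486 with a pseudocount of 1, 1827 where the mean had to reach 1 FPKM and 5300 with adjusted p alone. Higher calls were 21.5% of all calls, 38.8% with quantile normalization, which moved the median log2 difference from -0.11 to 0.08, and 37.2% with adjusted p alone. The cause was not tested where no construction of the alternative gives it. Values near 0 changed sign in Ier2, at 0.03 without cKO 1 (-0.29 to 0.03 over all alternatives), and in Hspa8, at -0.02 with an equal sum per library, -0.05 with quantile normalization, -0.01 with an equal sum without erythroid genes, -0.03 with the Xist covariate and without those libraries, and -0.08 to 0.14 with each library left out.

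Deviations of libraries with the same number correlated at 0.117, 0.0258, -0.0104, -0.00305 and 0.0929. No pairing by number showed in them, which does not exclude one. A replicate block gave 857 genes higher and 3107 lower, with 2 members higher and 3 lower, and changed no member's call. Fosb and Egr2, at 0 to 11 fragments a library, were limited by depth.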

Other observations

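Heat shock genes, which respond to stress together with the immediate-early genes, were examined as a separate list. Of 9 tested, 1 was called higher and none lower, where 4.6% and 16.8% of all genes were. The median log2 difference was 0.02. Hspe1, which encodes the mitochondrial chaperonin cofactor, rose from 139.1 ± 25.3 to 281.8 ± 63.5 FPKM (SD, n = 5 each; 1.0 on the log2 scale, limma adjusted p = 0.00125), and without WT 1 its difference was 0.90, under the fold limit. Hspa8, the constitutive cytosolic chaperone gene with the highest mean of the list, was at 447.7 ± 102.6 and 452.6 ± 90.6 FPKM, which differed by less than the spread between libraries (0.02, limma adjusted p = 0.944).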
